A study of Salmo trutta with 45 samples.

Results

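The genes described here are those with which a liver takes up, carries, stores and releases iron, breaks down heme and takes up copper, measured in single livers of juvenile female brown trout (Salmo trutta) by RNA sequencing. Transcripts of the assembled liver transcriptome were taken as members when their annotation contained any of 14 terms: ferritin, transferrin, hepcidin, ceruloplasmin, haptoglobin, hemopexin, heme oxygenase, ferrochelatase, biliverdin, iron-responsive, or the solute carrier names for the copper transporters, ferroportin and both mitoferrins. This gave 232 of 67093 transcripts. Of these, 10 belonged to electron-transferring flavoproteins (etfa, etfb and etfdh), mitochondrial fatty acid and amino acid enzymes whose name holds the letters of transferrin, and these are counted apart. The other 222 transcripts carried 26 gene identifiers and came from 26 assembled components, a component being a group of related transcripts that stands roughly for a gene locus. Terms for hepcidin, the liver hormone that lowers iron export, and for mitoferrin 1 (slc25a37) matched 0 transcripts.

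By role, 116 transcripts of 7 gene identifiers were grouped as iron-, heme- and hemoglobin-binding plasma proteins and 47 of 5 identifiers as heme turnover. Iron uptake, export and sensing had 23 of 6 identifiers, the ferritin store 18 of 5, and copper uptake 18 of 3. The plasma group includes hephl1, a membrane ferroxidase, and a serotransferrin fragment from the same component as transferrin-a. The number of transcripts per gene was uneven, from 1 for ferroportin (slc40a1) to 43 for ceruloplasmin (cp), and transcripts of a component share sequence, so a count of transcripts is not a count of independent measurements. A read was given to its best-matching transcript, and how reads divided among near-identical transcripts is uncertain, so levels are given as the sum over a gene's transcripts wherever possible.

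All fish were held in flow-through water for 14 days, with replicate tanks for each treatment. The comparisons used 12 untreated controls, pooled from the study's control groups, and 6 fish in each of 5 exposed groups. Roundup, a commercial glyphosate formulation, was dosed by its glyphosate acid equivalent at 0.01 mg/L (LR), 0.5 mg/L (MR) and 10 mg/L (HR). Glyphosate alone was given at 0.01 mg/L (LG) and 10 mg/L (HG), and a middle glyphosate group of 3 fish was not analysed here. The 5 comparisons with controls share the same 12 control fish and are therefore not independent of each other. The direct comparisons LR against LG and HR against HG set the formulation against the active ingredient at the same nominal glyphosate dose.

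Hepatocytes secrete most of the proteins that carry iron, heme and hemoglobin in plasma, keep surplus iron inside ferritin shells, and return iron to the blood through ferroportin, which hepcidin removes from the cell surface. Heme oxygenase opens the heme ring and releases iron, carbon monoxide and biliverdin, which biliverdin reductase turns into bilirubin, and the inducible form hmox1 is a widely used marker of oxidative stress. Haptoglobin, hemopexin, ceruloplasmin and, in several fish, transferrin belong to the acute-phase proteins, whose synthesis in the liver shifts during inflammation.

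Libraries held 10223638 to 33291845 counted reads, and members took 2.91 to 9.91% of them. Levels are read counts scaled to library size (CPM), and because transcript lengths were not used, levels are compared between fish and never between genes. Before any result, 4 exposed fish stood apart over the whole transcriptome: the median Pearson correlation of log2 CPM with the other 41 fish was 0.828 for LG1, 0.84 for MR1, 0.887 for HR3 and 0.894 for LR3, then 0.907 for MR4, against 0.913 to 0.945 for the rest. The summed hepatocyte markers lay between 78600 and 125000 CPM in all fish, and red cell markers between 806 and 2710 CPM. In whole-liver RNA, a change in the number of cells of a type and a change in RNA per cell cannot be told apart.

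No member passed an adjusted p below 0.1 (Benjamini-Hochberg over all transcripts tested, edgeR quasi-likelihood test) in any of the 7 comparisons. In LR, 0 of 217 tested members were called, against 0.0209% of all tested transcripts. The corresponding counts were 0 of 218 members against 0.00159% in MR, 0 of 216 against 0.00639% in HR, 0 of 219 against 0.0% in LG, and 0 of 219 against 0.00157% in HG. For LR against LG and HR against HG, 0 of 216 members were called, against 0.0% of all transcripts in each. The smallest adjusted p of any member was 0.244, for an hmox1 transcript in MR. With edgeR's exact test and a fixed prior in its place, 4 members were called in MR (3 of hmox1 and 1 of mitoferrin 2, slc25a28) against 0.992% of all transcripts and 2 in HR (fth1b and slc31a1) against 0.671%. It called 0 members in the remaining comparisons, beside 0.163% of all transcripts in LR, 0.457% in LG, 0.0551% in HG, 0.0213% in LR against LG and 0.00327% in HR against HG. DESeq2 called 1 member, an hmox1 transcript in MR, against 0.743%. It called 0 in the others, beside 0.249% of all transcripts in LR, 0.275% in HR, 0.0504% in LG, 0.0346% in HG, 0.0% in LR against LG and 0.0507% in HR against HG.

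Below that threshold, member transcripts leaned to the higher side in the Roundup groups and at the low glyphosate dose, and not at the high glyphosate dose. A few genes with many transcripts made up most of these counts. At an unadjusted p below 0.05, 14 members were higher and 0 lower in LR, 6.45% of members against 3.92% of all transcripts on the higher side and against 3.83% on the lower side. In MR, 27 were higher (12.4% against 5.18%) and 3 lower (1.38% against 3.75%). In HR, 22 were higher (10.2% against 4.08%) and 4 lower (1.85% against 3.26%). By gene, those higher in LR came from 4 genes, with 11 being transcripts of cp. Those higher in MR came from 6 genes and those in HR from 4, each with 13 of the copper importer slc31a1 and 7 of hmox1.

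The glyphosate groups differed from each other in the same count. In LG, 23 members were higher (10.5% against 4.49%) and 4 lower (1.83% against 2.23%), whereas in HG 12 were higher (5.48% against 3.22%) and 10 lower (4.57% against 3.26%). LR against LG gave 0 members in either direction, beside 1.01% of all transcripts higher and 1.49% lower. HR against HG gave 30 higher (13.9% against 3.22%) and 4 lower (1.85% against 2.5%). By gene, the higher transcripts came from 4 genes in LG (15 of cp) and 2 in HG (11 of 1 hemopexin). In HR against HG they came from 6 genes, 24 being of transferrin-a (tfa). The shares of members also rest in part on the fish that stood apart. The count of members at p below 0.05 in both directions went from 30 to 14 without MR1, from 26 to 9 without HR3 and from 27 to 8 without LG1. It went from 14 to 30 without LR3.

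Fitted log2 fold changes lay above 0 for 74.7% of tested members in LR (50.3% of all transcripts), 79.4% in MR (51.4%), 71.8% in HR (49.2%) and 73.1% in LG (51.4%), but for 38.8% in HG (49.6%). The direct comparisons gave 39.4% for LR against LG (47.8%) and 70.8% for HR against HG (49.6%). These shares count transcripts, and cp, tfa and heme oxygenase 2b (hmox2b) had the most, each with a median log2 fold change below 0 in HG. The median log2 fold change of the tested members was 0.16 for LR, 0.15 for MR, 0.12 for HR, 0.19 for LG and −0.13 for HG, where the median of all tested transcripts lay within 0.01 of 0 each time. By role, the copper transcripts had the highest medians, with 0.72 for LR, 1.41 for MR, 1.26 for HR, 1.08 for LG and 0.30 for HG on the log2 scale. The heme turnover transcripts had medians below 0 in every group, from −0.26 in HG to −0.09 in LR, since most of them belong to the constitutive heme oxygenase hmox2b and not to hmox1. The ferritin and the uptake and export groups had medians between −0.11 and 0.12. No member's values in any exposed group lay wholly outside those of its reference group, a pattern held by 0.037% of all transcripts for LR, 0.0223% for MR, 0.0272% for HR, 0.011% for LG, 0.0142% for HG, 0.108% for LR against LG and 0.28% for HR against HG. Of the flavoprotein transcripts, 0 of 10 had p below 0.05 in any of the 7 comparisons.

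**Figure D1:**
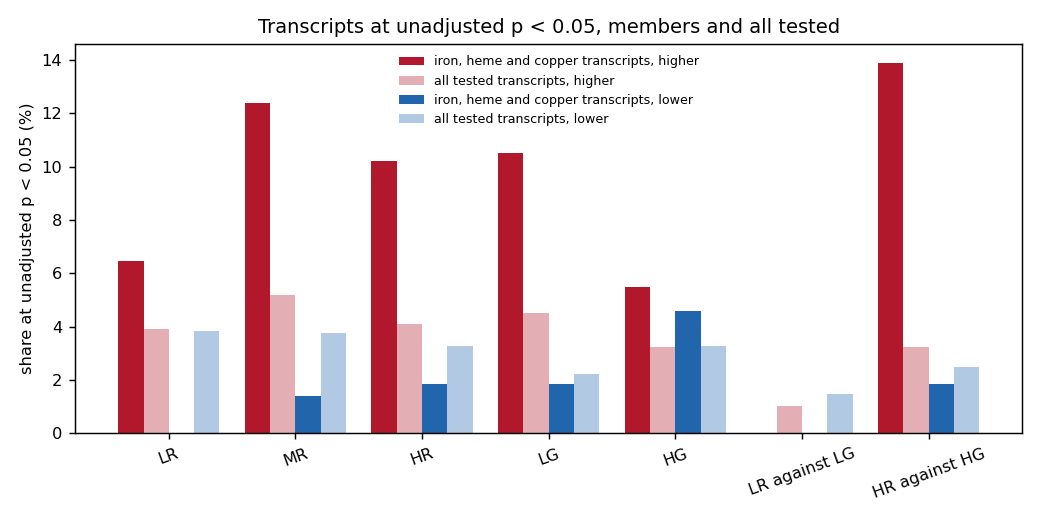
Share of member transcripts and of all tested transcripts with an unadjusted p below 0.05 (percent, y axis) in the 7 comparisons (x axis), drawn separately for the higher and the lower side. Members exceeded all transcripts most on the higher side in MR (12.4% against 5.18%) and in HR against HG (13.9% against 3.22%), and none passed an adjusted p below 0.1. Of the 30 transcripts higher in HR against HG, 24 are of tfa.

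Among the plasma proteins, haptoglobin (hp, ENSDARG00000051890), which binds hemoglobin freed from red cells, varied most from fish to fish, treated or not. Its summed level ran from 621 to 23800 CPM in the 12 controls, a 38.3-fold range with a median of 3610 CPM. The coefficient of variation (SD over mean) was 123.0%, higher than for 99.7% of the 9876 genes at 1 CPM or more, whose median was 21.8%. In exposed fish the lowest, median and highest levels were 784, 2550 and 25800 CPM in LR, 306, 1300 and 27100 CPM in MR, 840, 8670 and 21900 CPM in HR, 664, 2700 and 55900 CPM in LG, and 368, 1690 and 15600 CPM in HG. All 5 exposed ranges overlapped that of the controls. The log2 fold changes of the most expressed hp transcript were between −0.31 in HG and 1.28 in LG, with unadjusted p from 0.112 to 0.676 (edgeR), so differences between groups stayed below the spread among fish of a group.

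Transferrin-a (tfa, ENSDARG00000016771), the iron carrier of plasma, was much steadier, with 14500 to 37400 CPM in controls (median 24500). Its median was 26100 CPM in LR, 20700 in MR, 27900 in HR and 23400 in LG, and 17800 in HG, where the fish lay between 15500 and 24900 CPM. None of its 33 transcripts had p below 0.05 in LR, MR, HR or LG, and 3 were lower in HG. The most expressed transcript had log2 fold changes of 0.14, 0.11, 0.17 and 0.02 in LR, MR, HR and LG and −0.26 in HG.

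The clearest contrast for transferrin was between the Roundup and glyphosate groups at the high dose. Summed tfa was 18900 to 32700 CPM in HR and 15500 to 24900 CPM in HG, ranges that overlapped, with all 6 HR fish above the HG median and 3 above every HG fish. The summed log2 difference was 0.45 ± 0.20 (SE, unadjusted p = 0.0393, adjusted p = 0.877, edgeR on gene sums, exact permutation p = 0.0476). By transcript, 24 of 33 were higher in HR at unadjusted p below 0.05, and these share 1 component. The 2 transcripts annotated only as a serotransferrin fragment in another fish (ENSORLG00000016512) came from the tfa component as well, and 1 of them was higher in HR against HG at that level.

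Ceruloplasmin (cp, ENSDARG00000010312), the copper-bearing ferroxidase that loads iron onto transferrin, was the narrowest of the secreted carriers. Controls held 2380 to 3700 CPM (coefficient of variation 14.9%), and the median of 2750 CPM compared with 3340 for LR, 3200 for MR, 3220 for HR, 3070 for LG and 2650 for HG. For its most expressed transcript, the 6 LR fish had 494, 563, 568, 549, 597 and 621 CPM, where controls ran from 319 to 550 CPM with a median of 458. All 6 LR fish were thus above the control median, and 4 exceeded the highest control. The log2 fold change was 0.34 ± 0.12 (SE, unadjusted p = 0.00783, adjusted p = 0.49, edgeR, exact permutation p = 0.00108), the smallest p of any member in LR.

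In LG the same cp transcript had a log2 fold change of 0.48 ± 0.18 (p = 0.0166, adjusted p = 0.647, edgeR), but LG1 alone was at 1250 CPM and the value without LG1 was 0.17. In HG it was −0.29 ± 0.12 (p = 0.0265, adjusted p = 0.743, edgeR), with 312 to 459 CPM. The 11 of 43 cp transcripts in LR and 15 of 43 in LG with p below 0.05 were all higher than in controls. In HG only 1 of 43 was lower at that level. Between HR (398 to 705 CPM) and HG the log2 difference of the most expressed transcript was 0.53 ± 0.17 (p = 0.00614, adjusted p = 0.872, edgeR, exact permutation p = 0.0108). Only 2 of 43 transcripts were higher there at p below 0.05. This transcript had the largest shift of the 43 each time. Medians over the 43 were 0.20 in LR, 0.33 in LG, −0.13 in HG and 0.26 in HR against HG. Summed cp in HG differed from controls by −0.135 in mean log2 CPM.

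Both hemopexins encode plasma proteins that bind free heme, and that under ENSDARG00000012609 had every HG fish above the control median. Controls had 5130 to 11200 CPM with a median of 7670, and HG fish 8760 to 11900 CPM with a median of 9340, a range that overlapped that of the controls. The summed log2 fold change in HG was 0.28 ± 0.15 (unadjusted p = 0.0777, adjusted p = 0.716, edgeR on gene sums, exact permutation p = 0.0342), and 11 of its 24 transcripts had p below 0.05, all higher. Elsewhere the log2 fold change of its most expressed transcript was 0.28 (LR), 0.22 (MR), 0.05 (HR) and 0.33 (LG). HR against HG gave 4 transcripts lower in HR. The other hemopexin (ENSDARG00000051912) ranged from 158 to 586 CPM in controls (coefficient of variation 48.4%) and had no transcript with p below 0.05 against controls.

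Hephaestin-like 1 (hephl1, ENSDARG00000059231), a membrane ferroxidase related to ceruloplasmin, had its lowest median in HG. Controls had 1.05 to 3.72 CPM (median 2.28) and HG fish 0.879 to 2.32 CPM (median 1.48), with 1 HG fish above the control median. The log2 fold change was −0.62 ± 0.23 (p = 0.0142, adjusted p = 0.724, edgeR), and HR exceeded HG by 0.56 ± 0.24 (p = 0.0332, adjusted p = 0.873, edgeR), with all 6 HR fish (1.64 to 3.08 CPM) above the HG median.

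**Figure D2:**
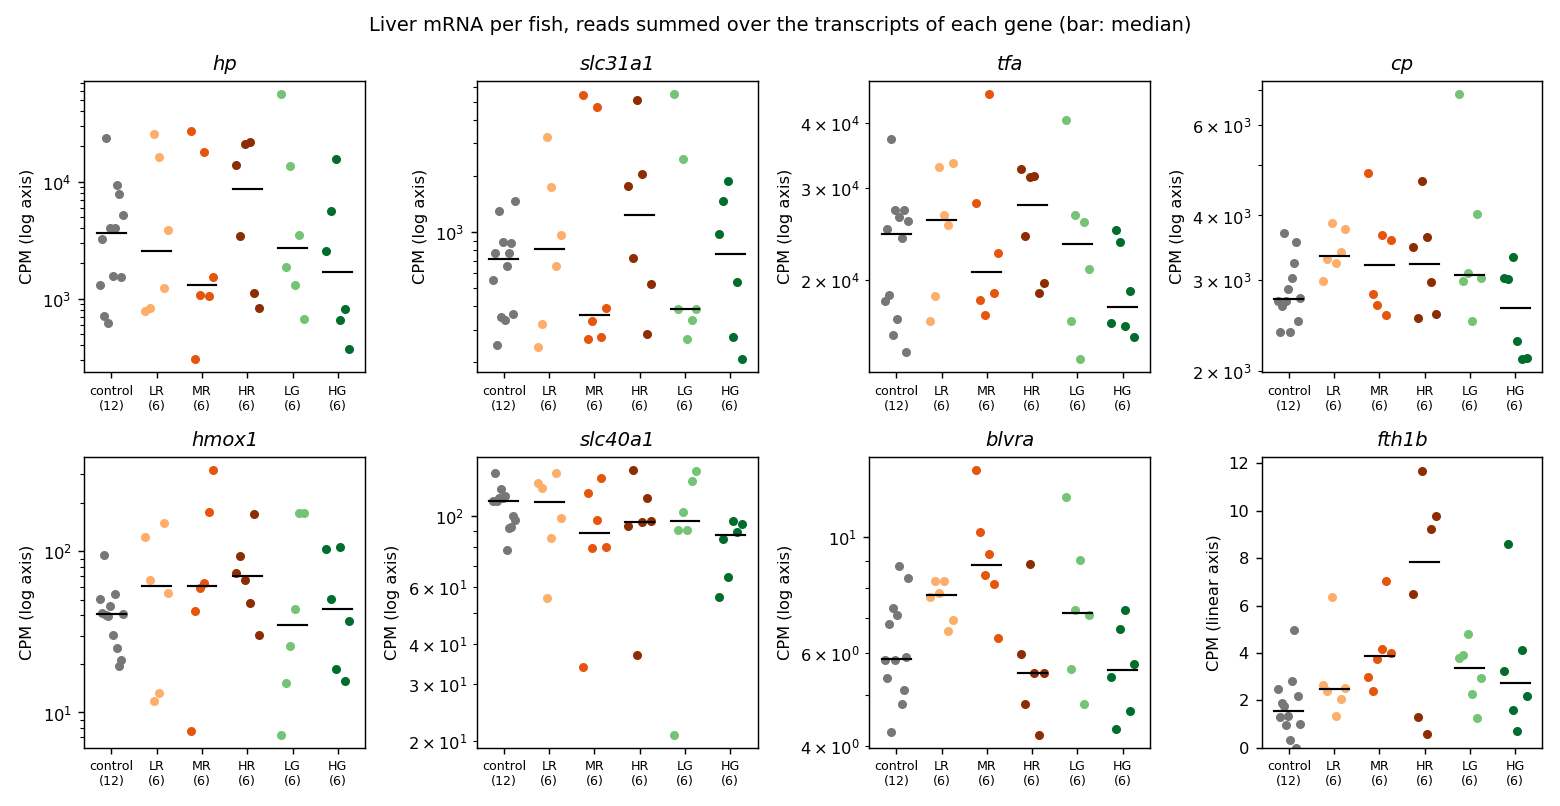
Level of 8 member genes in each fish (CPM, summed over the gene's transcripts; log scale for all but fth1b, which is on a linear scale) by group (x axis); each point is 1 fish and the bar is the group median. Haptoglobin and slc31a1 spread widely inside every group, and the exposed ranges overlap those of the controls in every panel. Ferroportin (slc40a1) is narrow, with 1 low fish each in LR, MR, HR and LG and 2 fish below every control in HG.

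Ferroportin (slc40a1, ENSDARG00000000241), the only known exporter of iron from cells, was tightly held in controls at 78.4 to 136 CPM (median 111). The 6 HG fish had 55.9, 84.7, 64.5, 96.4, 89.3 and 94.7 CPM, all below the control median and 2 of them below every control. Relative to controls, HG had a log2 fold change of −0.41 ± 0.14 (p = 0.00656, adjusted p = 0.691, edgeR, exact permutation p = 0.00404), and it stayed between −0.47 and −0.32 when each fish was left out in turn. For LR, MR, HR and LG the log2 fold changes were −0.05, −0.25, −0.18 and −0.18. There a single fish per group lay far below the controls: LR3 at 55.7, MR1 at 33.8, HR3 at 37.0 and LG1 at 20.9 CPM, the same fish that stood apart over the whole transcriptome.

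On the uptake side, transferrin receptor 1a (tfr1a, ENSDARG00000058784), which brings transferrin-bound iron into cells, had 33.6 to 64.6 CPM in controls. HG fish had 28.8 to 41.7 CPM, none above the control median of 42.8, and the summed log2 fold change was −0.29 ± 0.13 (p = 0.0353, adjusted p = 0.639, edgeR on gene sums, exact permutation p = 0.037). HR fish, at 37.8 to 49.3 CPM, had a summed log2 difference of 0.30 ± 0.13 from HG (p = 0.0384, adjusted p = 0.877, edgeR on gene sums).

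Transferrin receptor 2 (tfr2, ENSDARG00000018406), a hepatocyte iron sensor in mammals, had 12.1 to 31.6 CPM in controls, and its 5 transcripts had log2 fold changes from −0.36 to 0.38, none with p below 0.05. The iron-responsive element binding protein ireb2 (ENSDARG00000021466), which controls translation and stability of ferritin and transferrin receptor messages according to iron supply, was among the steadiest members. It had 19.8 to 31.6 CPM in controls and log2 fold changes between −0.15 and 0.12.

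Mitoferrin 2 (slc25a28, ENSDARG00000074297) carries iron into mitochondria. A low-level transcript of it, tested only in MR and LG, had one of the smallest p values of any member in MR. The control counts are identical in every comparison, and all 12 controls had reads for this transcript. Its listing for MR and LG but not the other groups therefore turned on the exposed fish. The p values given here for it, and for the sum that includes it, are conditional on that listing and are not support for a difference. MR fish had 3.86, 1.13, 1.08, 1.28, 0.897 and 1.05 CPM against 0.205 to 1.11 CPM in controls (median 0.589), so the groups overlapped. The log2 fold change was 1.25 ± 0.34 (p = 0.00129, adjusted p = 0.245, edgeR, exact permutation p = 0.00108) and 0.79 without MR1. Summed over all of the gene's transcripts listed for MR, this one included, slc25a28 had a log2 fold change of 0.25 ± 0.16 (p = 0.142, edgeR on gene sums).

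In the ferritin store no difference beyond the spread among fish was found for the heavy chain gene fth1a (ENSDARG00000015551). Its summed level was 757 to 1050 CPM in controls and 743 to 1060 CPM in exposed fish, and the log2 fold change of its most expressed transcript lay between −0.12 and 0.04. The ferritin gene zgc:92066 (ENSDARG00000031776) had 186 to 469 CPM in controls, and its 7 transcripts had log2 fold changes from −0.17 to 0.23. Neither gene had a transcript with p below 0.05 against controls.

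A second heavy chain gene, fth1b (ENSDARG00000007975), was close to the detection limit in controls and higher in several Roundup fish. Controls had 0.0 to 4.96 CPM with a median of 1.55. The 6 HR fish had 6.48, 1.3, 11.7, 0.586, 9.23 and 9.77 CPM, so that 4 were above every control and the other 2 below the control median. In HR this gave a log2 fold change of 1.91 ± 0.52 (p = 0.00143, adjusted p = 0.324, edgeR, exact permutation p = 0.0407) and remained between 1.66 and 2.16 with each fish left out.

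In MR, all 6 fish were above the control median of fth1b, at 2.97, 2.4, 3.75, 4.18, 7.03 and 3.99 CPM, and 1 was above every control. The log2 fold change was 1.23 ± 0.45 (p = 0.0115, adjusted p = 0.405, edgeR, exact permutation p = 0.0164). It was 0.73 in LR (p = 0.132), 0.87 in LG (p = 0.0718) and 0.97 in HG (p = 0.067) by the same edgeR test. HR and HG differed by 0.93 ± 0.62 (p = 0.154, edgeR), so a formulation difference was not separable from the spread among these fish.

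A light chain transcript (ftl, ENSDARG00000045586), the ferritin subunit that supports mineral formation, was higher in LG. LG fish had 2.72 to 4.28 CPM and controls 1.44 to 3.77 CPM, with all 6 LG fish above the control median of 2.45. The log2 fold change was 0.36 ± 0.17 (p = 0.0437, adjusted p = 0.728, edgeR). The low-level ferritin gene zgc:56095 gave the smallest p of the members in LR against LG, 0.0628 (edgeR).

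Heme oxygenase 1 (hmox1, ENSDARG00000027529) had the smallest p values in MR, and its levels spread in both directions from the controls. Summed over its transcripts, controls had 50.8, 41.5, 94.5, 40.1, 39.9, 45.6, 30.1, 54.4, 25.3, 19.5, 21.3 and 41.1 CPM. MR fish had 7.72, 42.5, 58.9, 63.4, 176 and 320 CPM, that is 2 fish above every control and MR1 below every control. HR fish had 73.6, 93.3, 66.7, 47.9, 171 and 30.4 CPM, with 5 of 6 above the control median of 40.6 and 1 above every control.

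The other groups showed the same splitting of hmox1, with medians of 61.0 CPM in LR, 34.8 in LG and 43.9 in HG, against 61.2 in MR, 70.2 in HR and 40.6 in controls. LR fish had 122, 66.5, 11.7, 13.2, 149 and 55.4 CPM, LG fish 7.3, 15.3, 25.8, 43.8, 174 and 172 CPM, and HG fish 103, 50.5, 18.6, 106, 15.7 and 37.2 CPM. In each of LR, LG and HG, 2 fish were above and 2 below every control. Of the 30 exposed fish, LR3, MR1 and LG1, which stood apart, had the lowest hmox1 of their groups.

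The most expressed hmox1 transcript had a log2 fold change of 1.39 ± 0.47 in MR (p = 0.00761, adjusted p = 0.365, edgeR), which was 0.71 without MR6 and 1.64 without MR1. On log2 CPM, where the low value of MR1 and the high values weigh alike, the exact permutation p was 0.326. In HR it was 1.00 ± 0.31 (p = 0.00392, adjusted p = 0.379, edgeR, exact permutation p = 0.0148) and 0.67 without HR5. It was 0.73 in LR (p = 0.1), 0.78 in LG (p = 0.138) and 0.37 in HG (p = 0.33) by the same edgeR test. In both MR and HR, 7 of the 8 hmox1 transcripts had p below 0.05, all higher and all of 1 component. The remaining transcript, from a separate component with the same annotation, had log2 fold changes between −0.03 and 0.36.

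The constitutive heme oxygenase hmox2b (ENSDARG00000078452) had the opposite sign. Its summed level was 80.7 to 144 CPM in controls (median 91.2), and the exposed medians were 87.8 (LR), 86.2 (MR), 81.0 (HR), 78.9 (LG) and 77.2 CPM (HG). The summed log2 fold change was −0.31 ± 0.13 in HG (p = 0.0275, adjusted p = 0.616, edgeR on gene sums, exact permutation p = 0.033), where 3 fish were below every control. LR (−0.11), MR (−0.25), HR (−0.22) and LG (−0.31) each had p above 0.05.

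At p below 0.05, transcripts of hmox2b lower than in controls numbered 3 (MR), 4 (HR), 4 (LG) and 3 (HG) of 31 tested, beside 3.75, 3.26, 2.23 and 3.26% of all transcripts on the lower side. They came from 1 component, and none was higher. One of them had a log2 fold change of −0.56 ± 0.17 in MR (p = 0.00307, adjusted p = 0.291, edgeR, exact permutation p = 0.000431). Another stood at 1.25 to 1.9 CPM in HG against 1.59 to 3.38 CPM in controls and had a log2 fold change of −0.58 ± 0.18 (p = 0.00349, adjusted p = 0.654, edgeR). Whether hmox2b differs from hmox1 in its response was not tested.

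Downstream of heme oxygenase, biliverdin reductase A (blvra, ENSDARG00000059857) was higher in MR. Controls had 4.25 to 8.78 CPM (median 5.86), and MR fish had 13.4, 10.2, 8.45, 9.25, 8.12 and 6.42 CPM, so that all 6 exceeded the control median and 3 exceeded the highest control. The summed log2 fold change was 0.55 ± 0.16 (p = 0.00293, adjusted p = 0.22, edgeR on gene sums, exact permutation p = 0.00366). It was 0.27 in LR, where all 6 fish (6.6 to 8.25 CPM) also exceeded the control median, and −0.13 in HR, 0.26 in LG and −0.16 in HG. Between blvra and hmox1, rho was −0.486 in LR, −0.543 in HR, −0.6 in LG and 0.314 in HG (each n = 6). Within MR, the most extreme group, both genes ranked in nearly opposite order (rho −0.943, n = 6): MR1 had the highest blvra and the lowest hmox1. MR2 to MR6 nevertheless lay above the control median of both genes (5.86 CPM for blvra, 40.6 CPM for hmox1). Across exposed fish, as 1 of 42 relations computed, r between both genes was −0.504 and rho −0.464 (permutation p = 0.0109 and 0.0188, adjusted p = 0.0229 and 0.0415), with r = −0.309 without MR1 and LG1. In controls r was 0.390 and rho 0.350 (permutation p = 0.211 and 0.267, adjusted p = 0.347 and 0.427).

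Biliverdin reductase B (blvrb, ENSDARG00000042310), which also reduces flavins, had 16.0 to 36.6 CPM in controls and log2 fold changes between −0.15 and 0.14. Ferrochelatase (fech), which inserts iron into the porphyrin ring as the last step of heme synthesis, was below 1 CPM on average and had no transcript with p below 0.05.

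**Figure D3:**
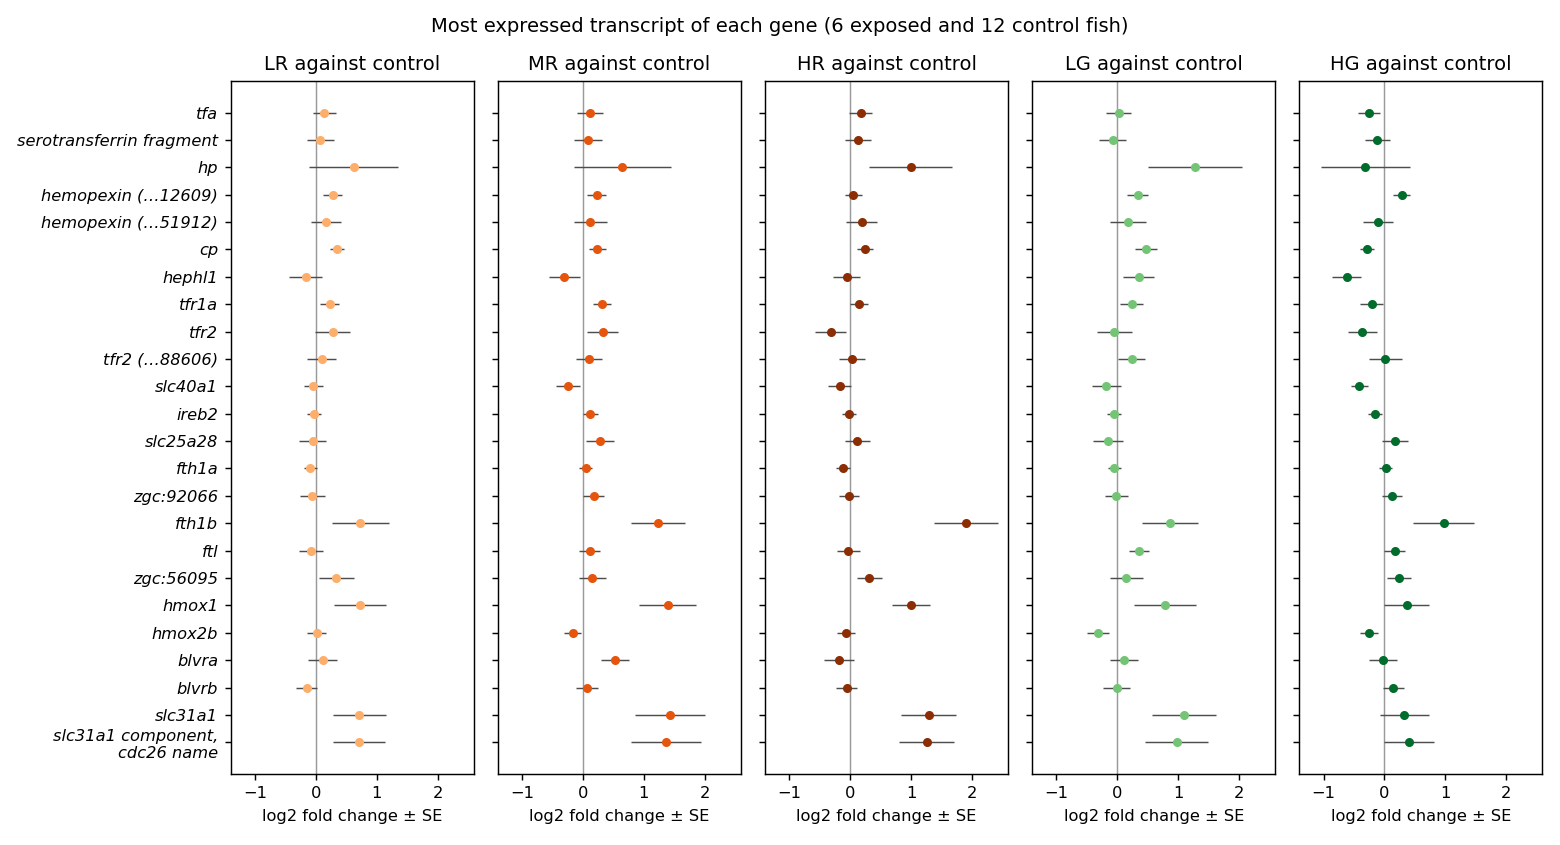
Log2 fold change against the 12 controls (x axis, bars are ± 1 SE from the edgeR model) of the most expressed transcript of each of 24 member genes (y axis), in 1 panel per exposed group of 6 fish. The widest positive values are those of fth1b (1.91 in HR), slc31a1 (1.43 in MR) and hmox1 (1.39 in MR), and slc40a1 in HG lies at −0.41.

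The high-affinity copper importer slc31a1 (ENSDARG00000013961), also called Ctr1, had the widest spread after haptoglobin among well-expressed members. Controls ranged from 248 to 1470 CPM (median 714, coefficient of variation 53.5%). MR fish had 5470, 266, 332, 4690, 274 and 390 CPM, 2 above every control and the other 4 below the control median. HR fish had 1760, 728, 5150, 2040, 285 and 528 CPM, with 3 above every control.

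The remaining groups were split in a like way. LR fish had 242, 321, 3250, 1740, 657 and 969 CPM, LG fish 5500, 386, 2460, 267, 337 and 389 CPM, and HG fish 982, 1470, 1880, 273, 537 and 209 CPM. The highest slc31a1 of each Roundup group was in the fish that stood apart, LR3, MR1 and HR3, and in LG it was LG1.

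For the most expressed slc31a1 transcript the log2 fold change was 1.43 ± 0.58 in MR (p = 0.021, adjusted p = 0.458, edgeR) and 0.74 without MR1. In HR it was 1.29 ± 0.46 (p = 0.00978, adjusted p = 0.476, edgeR) and 0.54 without HR3. In LG it was 1.09 ± 0.53 (p = 0.0505, adjusted p = 0.744, edgeR) and 0.10 without LG1. The exact permutation p on log2 CPM was 0.647 in MR, 0.153 in HR and 0.665 in LG. It was 0.71 in LR (p = 0.12) and 0.33 in HG (p = 0.428) by the same edgeR test, and HR against HG gave 0.96 (p = 0.166). The 13 of 15 slc31a1 transcripts with p below 0.05 in both MR and HR, and 6 in LG, all came from 1 component and were all higher.

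One transcript of the slc31a1 component was annotated as cdc26, a cell division gene, by its zebrafish match and as a copper transporter by another species. It had log2 fold changes of 1.36 in MR (p = 0.0267) and 1.26 in HR (p = 0.0114, both edgeR), close to those of slc31a1. The related low-affinity copper transporter slc31a2 was below 1 CPM on average in controls, and none of its transcripts had p below 0.05.

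**Figure D4:**
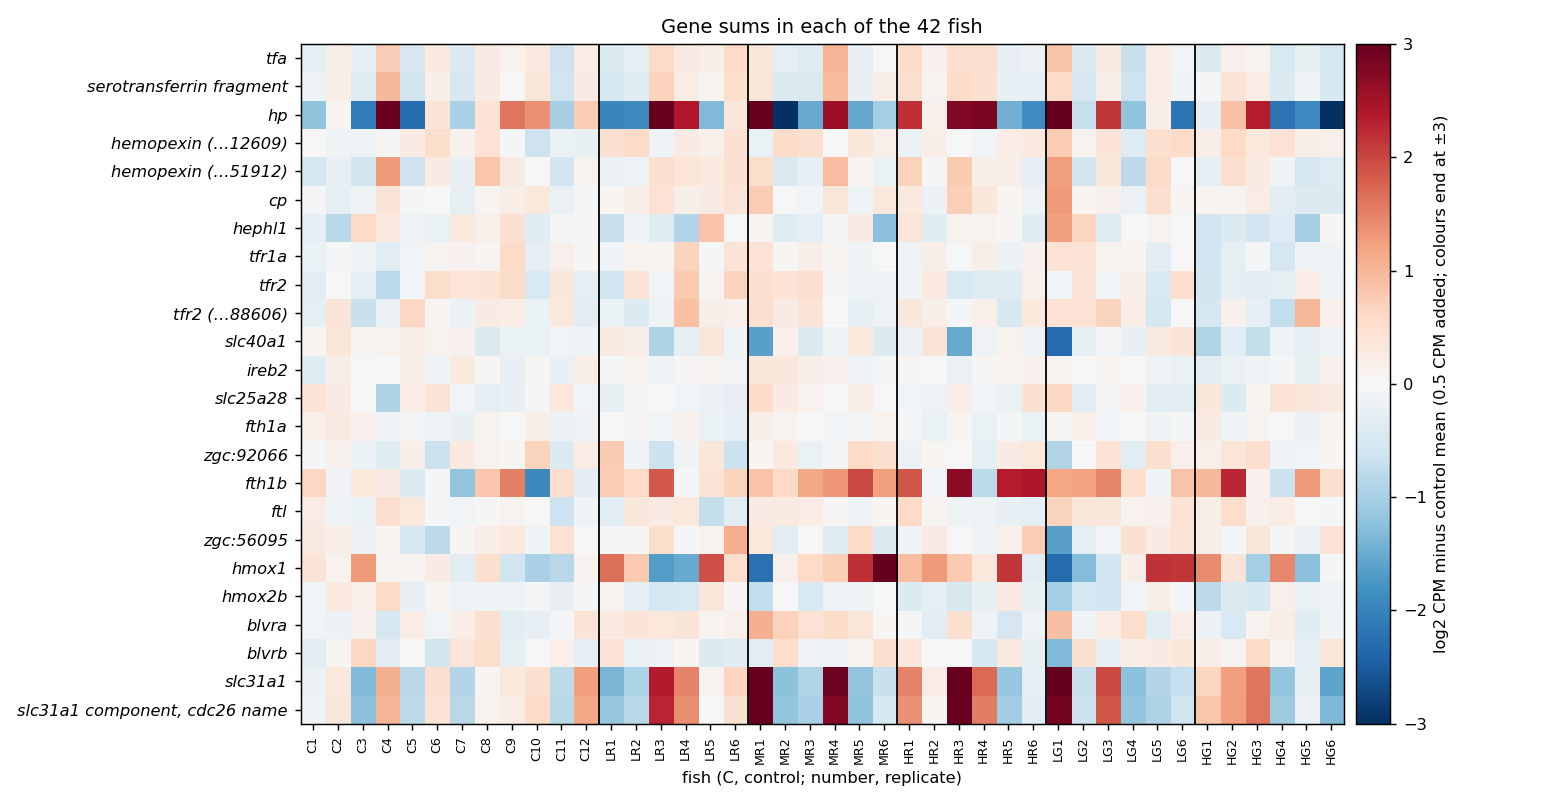
Summed level of member genes (rows) in each of the 42 fish (columns, by group) as log2 CPM minus the control mean, with colours ending at ±3. Haptoglobin and slc31a1 are high together in LR3, MR1, HR3 and LG1, the same fish in which ferroportin is lowest.

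The spread of haptoglobin among fish was shared by part of the set. The relations below were chosen after the levels had been seen, and 42 were computed in all, 21 gene pairs each in the 12 controls and in the 30 exposed fish with group means removed, on log2 CPM of gene sums, with p values adjusted over the 42. A p of 1e-05 is the smallest that 100000 permutations can give. The points share libraries, and the genes share the scaling of each library.

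The copper importer slc31a1 followed haptoglobin in both sets of fish. Across controls Pearson's r was 0.859 (permutation p = 0.00035, adjusted p = 0.0012) and Spearman's rho 0.783 (permutation p = 0.00361, adjusted p = 0.0101), with r = 0.829 without the 2 fish of most extreme hp. Across exposed fish r was 0.944 and rho 0.893 (permutation p = 1e-05, adjusted p = 7e-05 for r and 8.4e-05 for rho), with r = 0.929 without LG1 and MR1. Within the 5 exposed groups rho was 1.0 in LR, MR and HG, 0.886 in HR and 0.6 in LG (each n = 6). In treated and untreated fish alike, livers with more haptoglobin message had more slc31a1 message.

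Transferrin-a behaved likewise, with r = 0.883 and rho = 0.762 in controls (permutation p = 0.0002 and 0.00526, adjusted p = 0.000764 and 0.0138) and r = 0.838 and rho = 0.808 in exposed fish (permutation p = 1e-05 for each, adjusted p = 7e-05 and 8.4e-05). Without the 2 most extreme fish r was 0.781 and 0.822. For ceruloplasmin r was 0.749 and rho 0.734 in controls (permutation p = 0.00513 and 0.00925, adjusted p = 0.012 and 0.0229), and 0.771 and 0.724 in exposed fish (permutation p = 1e-05 and 4e-05, adjusted p = 7e-05 and 0.00024), with r = 0.691 and 0.707 without the 2 extremes.

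The hemopexins split. The gene ENSDARG00000051912 followed haptoglobin with r = 0.850 and rho = 0.888 in controls (permutation p = 0.00037 and 0.00032, adjusted p = 0.0012 and 0.00112) and r = 0.784 and rho = 0.739 in exposed fish (permutation p = 2e-05 and 3e-05, adjusted p = 0.00012 and 0.00021), with r = 0.712 and 0.740 without the extremes. For ENSDARG00000012609 r was −0.148 and rho −0.133 in controls (permutation p = 0.651 and 0.687, adjusted p = 0.72 and 0.801). Across exposed fish r was −0.259 and rho −0.332 (permutation p = 0.215 and 0.101, adjusted p = 0.347 and 0.185). By exposed group its rho with haptoglobin was −0.6 in LR, −0.943 in MR and −0.829 in HR, but 0.371 in LG and 0.543 in HG. The pooled values thus mix groups of opposite sign, and the difference between groups was not tested.

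Ferroportin ran against haptoglobin in exposed fish, with r = −0.691 and rho = −0.675 (permutation p = 4e-05 and 0.00021, adjusted p = 0.00021 and 0.00107), r = −0.586 without LG1 and MR1, and a rho below 0 in each of the 5 groups, from −0.829 in LR to −0.543 in LG. In controls, where no fish had ferroportin under 78.4 CPM, r was −0.316 and rho −0.427 (permutation p = 0.317 and 0.17, adjusted p = 0.444 and 0.297). Hmox2b gave r = −0.672 and rho = −0.672 in exposed fish (permutation p = 0.0002 and 0.00023, adjusted p = 0.000764 and 0.00107) and r = 0.498 and rho = 0.322 in controls (permutation p = 0.101 and 0.308, adjusted p = 0.193 and 0.446). Without the 2 fish of most extreme hp, these r values were −0.573 in exposed fish and −0.119 in controls, so the positive value in controls rests on those fish. The difference between exposed and control fish was not tested.

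For hmox1 the relation with haptoglobin was r = −0.546 and rho = −0.460 in exposed fish (permutation p = 0.00567 and 0.0203, adjusted p = 0.0125 and 0.0426) and r = −0.402 without LG1 and MR1. In controls r was −0.358 and rho −0.301 (permutation p = 0.253 and 0.34, adjusted p = 0.366 and 0.476). Hmox1 and ferroportin gave r = 0.620 and rho = 0.578 in exposed fish (permutation p = 0.00071 and 0.00255, adjusted p = 0.00199 and 0.00765), r = 0.432 without MR1 and LG1, and r = 0.218 and rho = 0.0699 in controls (permutation p = 0.495 and 0.835, adjusted p = 0.624 and 0.871). In each exposed group the fish with the highest hmox1 was another than the fish with the highest haptoglobin or slc31a1.

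The ferritin heavy chains followed neither direction, with r between −0.0899 and 0.146 against haptoglobin for fth1a and fth1b in both sets of fish. The sum of other acute-phase genes (complement c3a, C-reactive protein and others, 11 of 23 listed symbols found) had r = 0.787 and rho = 0.839 with haptoglobin in controls (permutation p = 0.00295 and 0.00118, adjusted p = 0.00731 and 0.00381), and r = 0.931 and rho = 0.944 in exposed fish (permutation p = 1e-05 for each, adjusted p = 7e-05 and 8.4e-05). The neutrophil list (5 of 14 symbols found) included cpa5, a gene listed for exocrine pancreas as well, so its sum is not of neutrophil genes alone. Neutrophil markers so summed had r = 0.564 and rho = 0.650 in controls (permutation p = 0.0556 and 0.0252, adjusted p = 0.111 and 0.0503) and r = 0.670 and rho = 0.646 in exposed fish (permutation p = 0.00016 and 0.00029, adjusted p = 0.000747 and 0.00112). Their part in the levels of hp, slc31a1, tfa and cp was not tested.

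**Figure D5:**
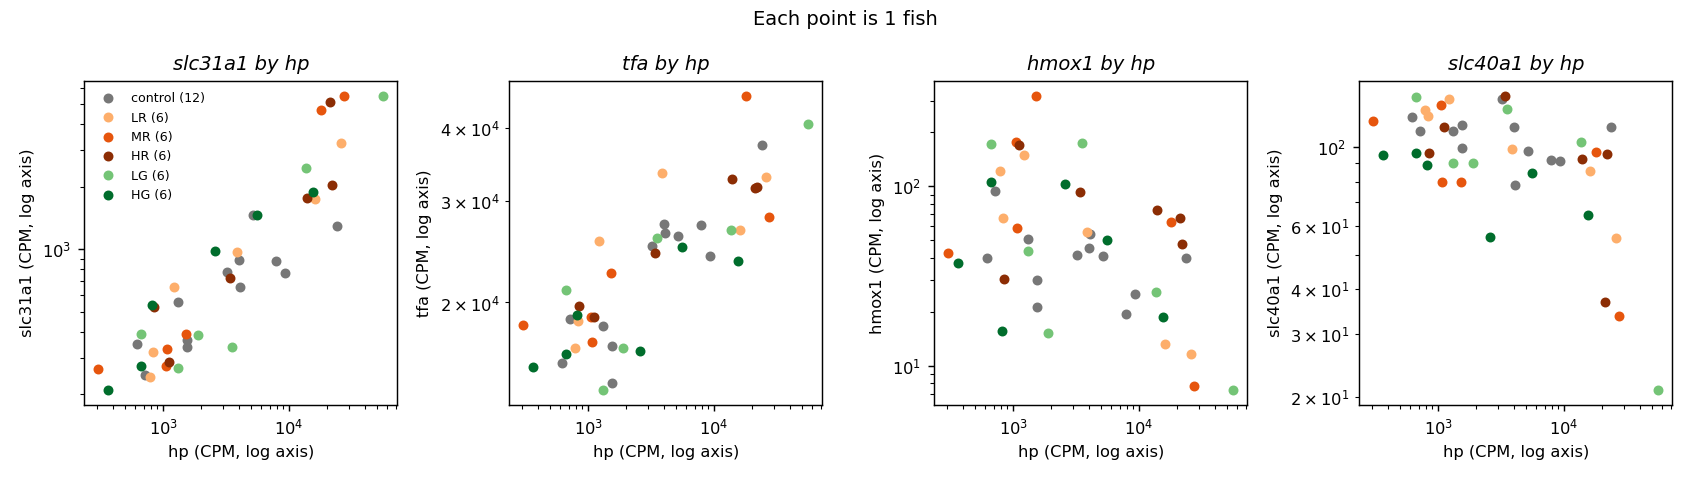
Summed level of slc31a1, tfa, hmox1 and slc40a1 (y axes, CPM, log scale) against haptoglobin (x axis, CPM, log scale) in 42 fish; each point is 1 fish, coloured by group. Points for slc31a1 and tfa climb along haptoglobin from 306 to 55900 CPM in all groups, while the lowest slc40a1 values (20.9 to 55.7 CPM in LG1, MR1, HR3 and LR3) sit at high haptoglobin. HG1, the next lowest at 55.9 CPM, had haptoglobin at 2560 CPM.

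Marker genes of other cells moved with some of these results. The counts below are of transcripts, often several to a gene, and the share of all tested transcripts follows in brackets. Macrophage markers (14 of 17 symbols found) summed to 221 to 447 CPM in controls and 210 to 288 CPM in HG. Of their 19 tested transcripts, 10 were lower in HG at p below 0.05 (3.26% of all), and 11 of 19 were higher in HR against HG (3.22% of all). HG is the group in which slc40a1 and tfr1a stood below controls, and between HR and HG the slc40a1 log2 difference was 0.24 (p = 0.352, edgeR). The part of macrophages in those levels was not tested. Acute-phase genes, beside tfa and cp in HR against HG, had 84 of 360 transcripts higher at p below 0.05 (3.22% of all) and none lower (2.5% of all). On that list 4 transcripts are haptoglobin's own. The sums were 55400 to 115000 CPM in HR and 47200 to 88300 CPM in HG. In MR, red cell markers (10 of 19 symbols found) summed to 1450 to 2710 CPM against 806 to 2050 CPM in controls, with 8 of 31 transcripts higher at p below 0.05 (5.18% of all). Across fish the r of red cell markers with hmox1 was 0.368 in controls and −0.187 in exposed fish (rho 0.343 and −0.152, permutation p = 0.238, 0.368, 0.274 and 0.458, adjusted p = 0.357, 0.499, 0.427 and 0.59). Neutrophil markers, with the shared pancreas gene cpa5 among them, had 7 of 10 tested transcripts higher in HR (4.08% of all). The sums of these markers were 7.15 to 60.1 CPM against 4.09 to 22.8 CPM in controls. Their part in the HR values of hp and slc31a1 was not tested. Hepatocyte markers (11 of 16 symbols found, none at 0 in all fish of a group) had 43 of 244 transcripts lower in HR at p below 0.05 (3.26% of all). In HR against HG, 61 of 244 were lower (2.5% of all). Their sums were 79200 to 101000 CPM in HR, 97200 to 125000 CPM in HG and 82900 to 113000 CPM in controls. Those are the groups in which tfa, cp and the hemopexin ENSDARG00000012609 were compared, and the part of this difference in their values was not tested.

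Genes of the same pathways outside the search terms were read from lists of heme synthesis, iron-sulfur assembly, iron uptake and regulation, heme transport and copper handling, and none of their transcripts passed an adjusted p below 0.1 in any comparison. The largest number at unadjusted p below 0.05 came from steap4, a metalloreductase that reduces iron and copper for uptake and responds to inflammation in mammals. Higher steap4 transcripts, all of the same gene, numbered 29 of 33 (LR), 32 of 33 (MR), 33 of 34 (HR) and 33 of 33 (LG). Of all transcripts, 3.92, 5.18, 4.08 and 4.49% were higher in these groups. Controls had 76.8 to 490 CPM and the fish that stood apart 1960 (LR3), 2540 (MR1), 2880 (HR3) and 2960 CPM (LG1), each the highest of its group.

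The summed steap4 log2 fold changes were 1.40 (LR), 1.75 (MR), 1.81 (HR), 1.63 (LG) and 0.43 (HG). The unadjusted edgeR p on gene sums was 0.0197, 0.011, 0.00269, 0.0122 and 0.397, with adjusted p of 0.29 or more. The exact permutation p was 0.406, 0.526, 0.109, 0.418 and 0.981. Steap4 had r = 0.865 and rho = 0.881 with haptoglobin in controls (permutation p = 0.00041 and 0.0003, adjusted p = 0.00123 and 0.00112), and r = 0.955 and rho = 0.900 in exposed fish (permutation p = 1e-05 for each, adjusted p = 7e-05 and 8.4e-05). The iron-sensing ubiquitin ligase adaptor fbxl5, which targets iron regulatory protein 2 for breakdown, had 5, 7, 4 and 6 of 10 transcripts higher in LR, MR, HR and LG, where 3.92, 5.18, 4.08 and 4.49% of all transcripts were. Its sums also followed single fish: controls had 11.2 to 19.9 CPM (median 14.4) and the medians were 17.1 (LR), 16.2 (MR) and 14.6 CPM (LG), with 39.1 in LR3, 76.1 in MR1, 56.3 in HR3 and 67.7 in LG1 as the highest fish. The unadjusted edgeR p of the sums was 0.00494 for LR, 0.00266 for MR, 0.0193 for HR and 0.00636 for LG, with adjusted p of 0.218 or more. The exact permutation p of the sums was 0.0165 for LR, 0.0504 for MR, 0.111 for HR and 0.0644 for LG. With haptoglobin, fbxl5 had r = −0.024 in controls (permutation p = 0.941, adjusted p = 0.941). In exposed fish r was 0.868 (permutation p = 1e-05, adjusted p = 7e-05), and 0.832 without LG1 and MR1.

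The gene id1, a transcriptional target of the BMP signal that drives hepcidin in mammals, was lower in LR and MR. Its summed level was 21.4 to 27.6 CPM in LR against 26.9 to 45.2 CPM in controls, nearly without overlap. On gene sums, the log2 fold change in LR was −0.59 (unadjusted p = 4.75e-05, adjusted p = 0.0989 over 20821 gene sums, edgeR, exact permutation p = 0.000269), the only one of these values to pass an adjusted p of 0.1. No single id1 transcript passed over all transcripts. In MR the sum gave −0.54 (adjusted p = 0.175, edgeR, exact permutation p = 0.000593), and the HG value was −0.38 (exact permutation p = 0.00743).

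Smaller shifts were seen elsewhere in these lists. The fold changes that follow are of single transcripts, except the sums given for fdx1. The heme transporter slc48a1a, which moves heme out of lysosomes, had a log2 fold change of 0.44 in HR (p = 0.000872, adjusted p = 0.284, edgeR), with 6.39 to 8.36 CPM against 4.39 to 6.7 CPM in controls. It was at 0.28 in LR (p = 0.0312), 0.41 in MR (p = 0.0301), 0.34 in HG (p = 0.0254) and 0.08 in LG (p = 0.609) by the same edgeR test. Aminolevulinate dehydratase (alad), an early enzyme of heme synthesis, was at −0.43 in LR (p = 0.0129, adjusted p = 0.53, edgeR), with 4.77 to 10.5 CPM against 8.62 to 15.3 CPM in controls. Ferredoxin 1 (fdx1), an iron-sulfur electron carrier, had summed log2 fold changes of 0.60 in LR, 0.69 in MR (adjusted p = 0.157, edgeR on gene sums) and 0.80 in LG. The Nrf2 repressor keap1b had a log2 fold change of 0.60 in LR (p = 0.000322, adjusted p = 0.282, edgeR). The same transcript was at 0.64 in MR (p = 0.0071), 0.33 in HR (p = 0.0339), 0.24 in LG (p = 0.172) and 0.26 in HG (p = 0.128) by edgeR. Of the heme synthesis list, a low-level transcript of alas1, its rate-limiting enzyme in liver, was at −0.66 in HR (p = 0.00769, adjusted p = 0.441, edgeR). It had 0.437 to 1.68 CPM in HR against 1.14 to 2.29 CPM in controls. The mitochondrial glycine carrier slc25a38b was at 0.94 in HG (p = 0.0039, adjusted p = 0.654, edgeR). The transporter abcg2d, at 0.546 to 4.15 CPM in controls, had 1.25 in HG (p = 0.00546, adjusted p = 0.68, edgeR), 0.91 in LR (p = 0.0335, adjusted p = 0.606, edgeR) and −1.23 in HR against HG (p = 0.0019, adjusted p = 0.872, edgeR). The copper list outside the search terms had at most 3 transcripts higher in any comparison with controls.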

How the data were processed

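Liver RNA of 42 juvenile female brown trout (1 library per fish) was used. Per the labels and the study's methods, the authors assembled the reads de novo with Trinity, annotated transcripts by Blastx against Ensembl peptides of zebrafish and other species, mapped reads with Bowtie2 2.1.0 keeping a single best hit, and took a raw count per transcript with SAMtools 0.1.18 (versions from the submitters' processing notes). The 5 deposited tables each hold the same 12 controls and 6 exposed fish, and do not all list the same transcripts, 59706 of 67093 being in every table. The authors also deposited, from their own edgeR comparison, a log2 fold change and mean log2 CPM, a p-value with its adjusted FDR, and a score of −1, 0 or 1 for their call. None of these columns was used.

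Counts were refitted per comparison with edgeR 4.0.16 (TMM scaling, quasi-likelihood test, Benjamini-Hochberg over all tested transcripts, calls at an adjusted p below 0.1) in R 4.3.3, after a filter that asked for a read (minimum 1) in 6 or more fish. A 2-sided exact permutation test on log2 CPM (prior count 2) ran over 18564 splits (12 against 6, smallest possible p 5.39e-05) or 924 splits (6 against 6, smallest 0.00108). For levels, permutation tests and correlations, gene sums used transcripts listed in all 5 tables. The edgeR fits on gene sums used all transcripts available for the comparison at hand, which for a few genes are more. Correlations used 100000 permutations. DESeq2 1.42.0, edgeR's exact test (prior degrees of freedom 10), other scalings, filters and fits, and leaving out each fish were tried as alternatives. Python 3.11.15 was used for all else (scipy 1.17.1 for permutations, matplotlib 3.10.9 for drawing, numpy 2.4.6, pandas 2.3.3). The fits were tested on simulated counts.

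The members, the pathway and marker lists and the rules were chosen with earlier results of these data known. The genes named are the most expressed transcript of each member gene at a mean of 1 CPM or more, any member called, the 5 smallest p values in each comparison, and hmox1, slc25a28, slc31a1 and fth1b, which gave 48 transcripts. A gene outside the members is named only where it had the smallest p of its list in a comparison or an adjusted p below 0.1. Depth was 10223638 to 33291845 counted reads per library, so a transcript at 1 CPM rests on few reads. Exposure was given by tank, while the tests treat each fish as a separate unit. Which fish shared a tank was not used, so a tank effect was not separated from a treatment effect.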

Additional observations from a re-analysis of the deposited data

Results flagged for a closer look

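In 120 gene and group pairs of 6 fish (the most expressed transcript of each member gene), the fish at 1 end was compared with its nearest neighbour. In 6 pairs the gap took an unusually large part of the group's range (Dixon's test at 95%). Gap and range were taken on log2 CPM, while the levels below are in CPM, on which the flags could differ. Chance alone flags about 1 in 20 of independent pairs, and 6 flags are no more than that rate gives. The pairs share the same fish and are not independent, so the count decides nothing about chance. Ferroportin (slc40a1) accounted for 3 of them: MR1 at 33.8 CPM with the next fish at 79.7, HR3 at 37.0 CPM with the next at 92.8, and LG1 at 20.9 CPM with the next at 90.2. The ferritin gene zgc:56095 had HR6 at 4.07 CPM above the next fish at 2.5, and LG1 at 0.421 CPM below the next at 1.92. Mitoferrin 2 (slc25a28) had HG2 at 1.33 CPM below the next fish at 2.45. MR1, HR3 and LG1 are also 3 of the 4 exposed fish that stood apart over the whole transcriptome.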

How the results depend on the processing

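The count of members called was 0 in all 7 comparisons with DESeq2's size factors, with no filter, with a stricter filter (over 1 CPM in 6 or more fish), with all groups in 1 fit, on gene sums, and from 0 to 0 with each fish left out in turn. It differed with edgeR's exact test (4 in MR, 2 in HR) and DESeq2 (1 in MR). The deposited counts had already been filtered, with only 0 to 2 transcripts per comparison with controls having reads in under 6 fish. Dropping the filter there left nearly the same transcripts, so that setting could not show whether the result depends on the filter. With the replicate number as a block (replicate block), 0 members were called in each comparison. The numbers do not pair the fish: same-numbered fish had deviations correlated between −0.364 and 0.271 in the comparisons with controls, −0.397 and 0.235 in LR against LG and −0.155 and 0.386 in HR against HG, and at most 3 of the 6 numbers exceeded 0.1. The count of members at an unadjusted p below 0.05 was less stable. Against 30 in MR, 26 in HR, 27 in LG, 22 in HG and 34 in HR against HG, the block gave 14, 10, 11, 12 and 44, and a single fit of all groups gave 7 in HR and 47 in LG. In LR, the count of 14 became 7 with the block or the exact test and 5 in the single fit. The exact test gave 9 in HG and 22 in HR against HG. LR against LG, at 0, had 1 with the block, 3 in the single fit and 0 to 2 with a fish left out. Gene sums, with fewer units tested, gave 0 to 5. Leaving out 1 fish gave 2 to 32 in LR (2 without LR6, 30 without LR1, 26 without control 4, 32 without control 6 and 9 without control 11), 14 to 34 in MR (17 without MR4), 9 to 31 in HR, 8 to 72 in LG (72 without LG4, 48 without LG2 or control 4, 14 without control 2, and 17 without control 3, 7 or 11), 14 to 32 in HG (14 without control 9) and 20 to 54 in HR against HG (20 without HR1, 21 without HR3 or HR4, 54 without HR6, 53 without HG3 and 22 without HG4). The cause was not tested. No fitted log2 fold change of a named transcript with p below 0.05 changed sign under any of these alternatives. The difference in mean log2 CPM, the scale of the permutation tests, was less stable for summed slc31a1. It went from 0.342 to −0.216 in MR without MR1 and from 0.274 to −0.3 in LG without LG1. In HR it was at least 0.413 with any fish left out. Transcripts near 1 CPM, such as fth1b, ftl and hephl1, rest on few reads, and differences of the size of those in hp and slc31a1 are within what their spread among fish can hide.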
